A study of Mus musculus with 4 samples.

Results

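The genes examined here carry the names of eukaryotic translation initiation factors (Eif) and elongation factors (Eef), and their transcripts were measured by RNA sequencing in mouse haematopoietic stem cells (HSCs), which sit in the bone marrow, renew themselves and form all blood lineages. They were chosen by name alone: a feature was taken if one of its names began with Eif or Eef and a digit, and the eIF2 kinases (Eif2ak) were left out. This gave 64 of 34315 features, of which 57 are factors or proteins named after them, 3 are pseudogenes and 4 are Argonautes, which bear the older names Eif2c1 to Eif2c4 and act with microRNAs, so the name does not make them translation factors. A mean of at least 10 normalised counts over both arms was reached by 61 of the 64. The other 3 were Eif4e1b, a relative of the cap-binding protein, with 0 reads in all libraries, Eef1a2, and the pseudogene Eif3s6-ps2.

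The cells were freshly sorted from bone marrow of C57BL/6 mice as side population cells with the KSL-CD150+ surface phenotype. Wild-type HSCs are represented by 4 libraries, which the labels call technical replicates of 1 biological replicate, and the other arm is labelled Dnmt3a-KO, a loss of the DNA methyltransferase Dnmt3a. That arm enters only as the averaged count, fold change and p-value of the authors' deposited table, the p-value being read as adjusted, so the spread between its libraries was not examined and no test between genotypes was run. The age and sex of the mice, the allele, any Cre driver and any pooling of animals are not stated in the sources used here. Dnmt3a itself had 8229, 8569, 5400.1 and 5208 normalised counts in the wild-type libraries and 8423 in the knockout mean, a log2 value of 0.30 (adjusted p 0.952) by the authors' deposited table. Its summed reads were thus not lower in that arm, the deleted exons are not named in the sources used here, and the gene's count gives no check of the label. The term knockout mean stands below for the mean of the arm so labelled.

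Translation starts when a small ribosomal subunit carrying initiator tRNA is brought to the capped end of an mRNA and scans to the start codon. eIF4E, eIF4A and eIF4G bind and open the cap end, eIF3 links the mRNA to the ribosome, eIF2 with its exchange factor eIF2B delivers the initiator tRNA, and eIF1, eIF1A and eIF5 govern the choice of the start codon. Elongation then needs eEF1A, which brings each aminoacyl-tRNA, its exchange complex eEF1B, and eEF2, which moves the ribosome along. HSCs are known for a low rate of protein synthesis compared with the progenitors that they form.

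Library totals were 40709659, 40798800, 47408552 and 47365062 counts, and all values below are read counts divided by a size factor for depth ("normalised counts"). Libraries 1 and 2 resembled each other, as did libraries 3 and 4. Among the genes examined with a mean of at least 100, the largest difference within a pair was 0.233 on the log2 scale and the largest between pairs was 1.22, so each pair is treated as 1 averaged sample and p-values would measure only the spread between such libraries. Markers of other cells moved with the pairs and the arms: the summed myeloid list (10 of 10 genes measured) stood at 66438 normalised counts in the first pair, 28196 in the other and 47429.5 in the knockout mean of the authors' deposited table. The immediate early list stood at 9114, 199425 and 74283 in the same order, the last from the authors' deposited table. Of its 7 features, 2, Fos and Klf2, were called lower there. Fos stood at 854, 49960 and 4173 and Klf2 at 51.4, 4082 and 117 in that order. Both knockout means thus lay between the wild-type pairs, below libraries 3 and 4 but above libraries 1 and 2. Erythroid markers stood at 8385, 6286 and 732, with 6 of 10 features called lower in the authors' deposited table. Mast cell and basophil markers stood at 872, 1563 and 91.0 with 4 of 4 called lower, and megakaryocyte markers at 23926, 21164 and 5159.5 with 3 of 5, by the authors' deposited table. Lymphoid markers stood at 122, 169 and 52.1, with 2 of 4 measured genes called lower by the authors' deposited table. Stromal and endothelial markers stood at 3567, 4741 and 2731, with 2 of 5 called lower there. All 10 stem cell markers were detected and stood at 141756, 175436 and 148747, the last from the authors' deposited table. Of the 10, 9 were higher in libraries 3 and 4 than in libraries 1 and 2, and Meis1 stood at -0.01. The median log2 difference between the pairs was 0.41 for this list. By the authors' deposited table its log2 fold changes ran from -1.86 to 2.44, and none of the 10 was called. The part of these shifts in the results below was not tested, and in bulk samples fewer cells of a type and less RNA per cell cannot be told apart.

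Elongation factors led the group. The 64 features together held 2.62%, 2.60%, 3.47% and 3.44% of all counts in libraries 1 to 4, with an exact binomial 95% interval of 2.61% to 2.62% in library 1 and 3.47% to 3.48% in library 3, covering counting error only. Eef1a1, the aminoacyl-tRNA carrier, alone held 0.851%, 0.828%, 1.39% and 1.36% and Eef2, the translocase, 0.447%, 0.454%, 0.624% and 0.624%. In the authors' deposited table the 2 genes held 1.88% of the summed knockout mean.

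Eef1a1 (chromosome 9, 78326261 to 78329531, minus strand, mm9) had 364318, 353738, 630582 and 606545 normalised counts in libraries 1 to 4. Libraries 3 and 4 were the high pair and did not overlap libraries 1 and 2. Its sister gene Eef1a2, known from muscle and neurons, had 1 read in library 3 and 0 in the other libraries, where 0 reads allow up to 0.0737 CPM, the count scaled to library size, at the lowest depth. The eEF1A reads of these HSCs thus came almost wholly from Eef1a1. That gene has many pseudogene copies, and how reads that match several places were counted is not stated in the sources used here. Eef2 (chromosome 10, 80639376 to 80645254, plus strand, mm9) had 191414, 194047, 282328 and 277415 normalised counts, again higher in libraries 3 and 4.

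Levels of different genes can be compared only per length, so normalised counts were divided by the exon length in kb. On that scale Eef1a1 averaged 274450.3 and Eef2 76572 over the wild-type libraries, ranking 1 and 9 among all features. Next came Eef1b2, the catalytic subunit of the eEF1B exchange complex, at 20915 per kb, and Eif5a, the factor that carries the modified lysine hypusine and helps ribosomes past difficult peptide bonds, at 16404 per kb. Eef1b2 had 33134, 32003, 48569.6 and 47507 normalised counts in libraries 1 to 4 and Eif5a had 31202, 31450.0, 34909 and 34064. The eEF1B scaffold subunit Eef1g stood at 12437 per kb and the second exchange subunit Eef1d at 3127, so that Eef1b2 exceeded Eef1d 6.03-fold to 7.04-fold per kb over the libraries. Eef1e1, which belongs to the multi-tRNA synthetase complex, was lowest of the 4 at 1020.0 per kb, and Eef2k, the kinase that inhibits eEF2, stood at 2295 per kb.

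**Figure D1:**
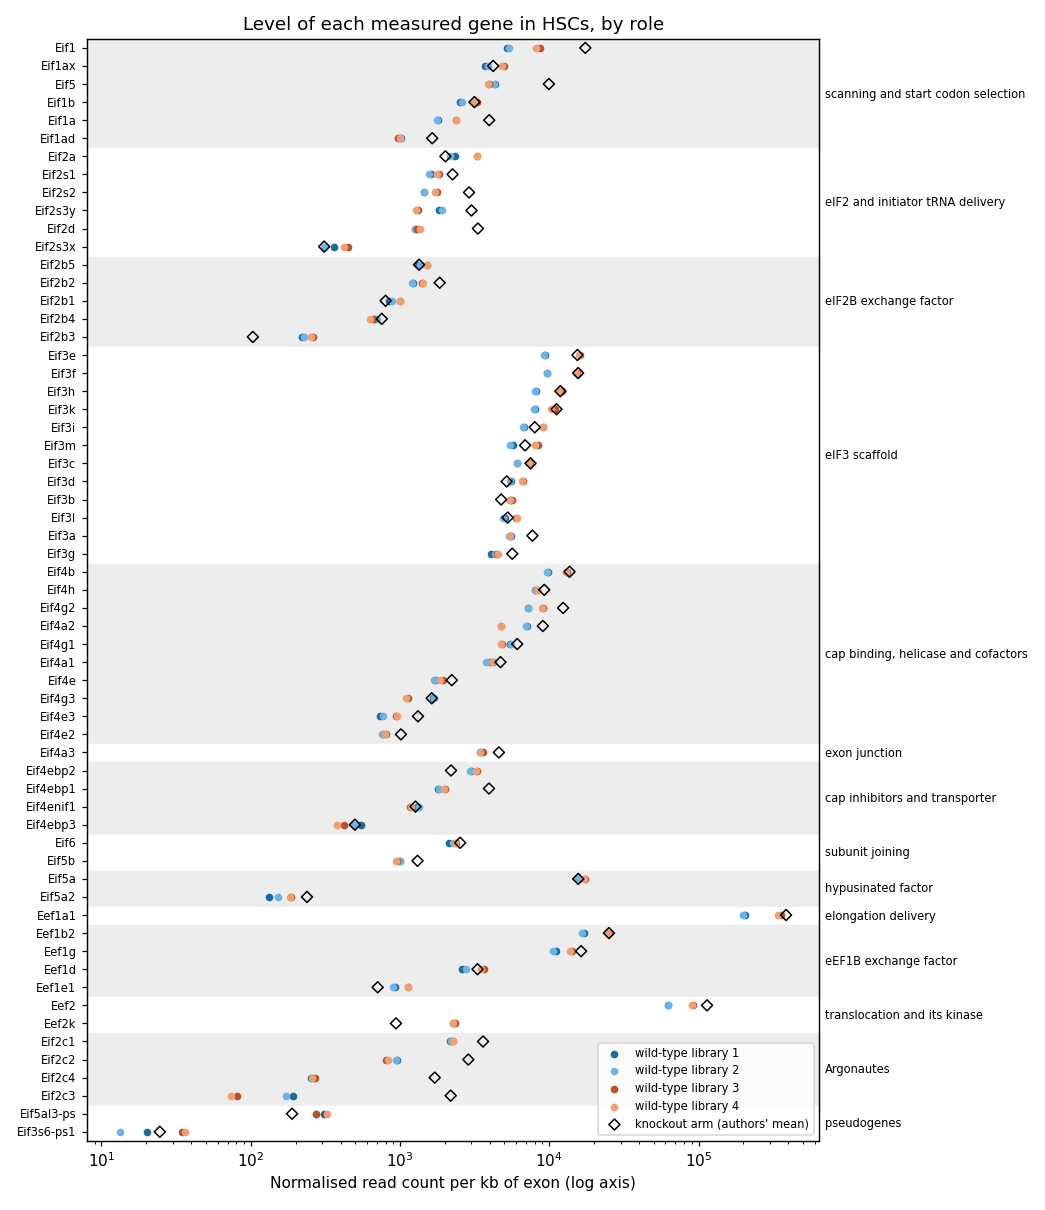
Normalised read count per kb of exon (log axis) for the 61 measured genes, grouped by role, with a point for each of the 4 wild-type libraries and a diamond for the knockout mean of the authors' deposited table. Eef1a1 at 274450.3 and Eef2 at 76572 per kb (wild-type means) lie far to the right of the others, and libraries of a pair nearly coincide.

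Many mRNAs of the translation machinery are known to begin with a run of pyrimidines, the terminal oligopyrimidine tract through which mTORC1 signalling acts on them. RefSeq promoter windows (build GRCm38.p6, matched by symbol) were found for 47 of the 64 genes, 62 windows in all. A run of at least 8 pyrimidines (C or T) on the sense strand that reached within 15 bases of the start was present in 16 of them (25.8%), against 17.6% of all 32851 windows of that length, and such a match is a description of letters, not a site in use. 5 windows are shown as examples with and without such a run: Eef1a1 and Eef2, the highest genes, the eIF3 subunits Eif3f and Eif3l, and the helicase gene Eif4a2, which has no such run. Each runs from 20 bases before to 22 bases after the annotated start, with the longest run near the start in capitals.
Eef1a1 (chr9:78481703-78481744, minus strand): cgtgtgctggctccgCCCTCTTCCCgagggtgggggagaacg
Eef2 (chr10:81176611-81176652, plus strand): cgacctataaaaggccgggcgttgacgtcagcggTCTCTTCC
Eif3f (chr7:108934395-108934436, plus strand): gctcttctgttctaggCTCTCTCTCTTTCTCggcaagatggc
Eif3l (chr15:79075203-79075244, plus strand): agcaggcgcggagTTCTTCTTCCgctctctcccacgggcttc
Eif4a2 (chr16:23107448-23107489, plus strand): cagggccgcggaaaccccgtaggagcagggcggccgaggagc
The run was 15 bases long in Eif3f, 10 in Eef1a1 and Eif3l, and 8 in Eef2, where it starts at base 15 of the annotated transcript. A shorter run follows it in Eif3l, left in lower case. In Eif4a2 the longest run was 4 bases.

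The subunits of eIF3, the largest initiation factor, were all present within a narrow band. The 12 subunit genes ranged from 4336 normalised counts per kb in Eif3g, an RNA-binding subunit, to 12626 in Eif3e, a 2.91-fold range. Eif3e had 14303, 14105, 24694 and 24067 normalised counts in libraries 1 to 4 and Eif3f had 14439.7, 14559, 23037 and 22727. Both were higher in libraries 3 and 4 with no overlap. The core subunits Eif3a and Eif3b, by contrast, had 28454, 27762, 27937 and 28052 and 16064, 16358, 16479.9 and 16006, with differences between the pairs no larger than those within them.

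The subunits of eIF2B were lower and more spread. They ranged 5.94-fold, from 241 per kb for Eif2b3, which encodes the gamma subunit, to 1430.5 for Eif2b5, which encodes the catalytic epsilon subunit. Of these 5 genes, Eif2b5 had 3361, 3446, 3864 and 3862 normalised counts and Eif2b3 882, 916, 1045 and 1018. The eIF2 subunits that eIF2B acts on lay near each other, with Eif2s1 (alpha) at 1687 and Eif2s2 (beta) at 1595 per kb.

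The gamma subunit of eIF2 has a copy on each sex chromosome. The Y-linked Eif2s3y had 3213, 3340.4, 2315 and 2252 normalised counts in libraries 1 to 4 and the X-linked Eif2s3x 1283, 1112, 1593 and 1502. Per kb, Eif2s3y exceeded Eif2s3x by ratios of 5.10, 6.12, 2.96 and 3.05, and by 9.70 in the knockout mean of the authors' deposited table. The Y copy was the higher one in every wild-type library, by a smaller margin in libraries 3 and 4. The 2 copies resemble each other closely, so their split by the authors' counting is uncertain. Eif2a, which can bring initiator tRNA without eIF2, had 5375, 4942, 7443 and 7461 normalised counts and overlaps Serp1 in position.

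Among the cap-binding and helicase genes, which assemble on the capped mRNA end, Eif4b was highest per kb at 11377, with 37624, 37322, 50369.6 and 49389 normalised counts in libraries 1 to 4. The helicase eIF4A is encoded by Eif4a1 and Eif4a2, and HSCs expressed both. Eif4a2 had 22415, 22009, 15106 and 15076 normalised counts, lower in libraries 3 and 4, and Eif4a1 had 7448, 6989.7, 7831 and 7743. The Eif4a1 to Eif4a2 ratio per kb was 0.562, 0.537, 0.877 and 0.869, below 1 in every library, although Eif4a2 overlaps Rfc4 and Snora81 in position. Of the scaffolds, Eif4g2, which lacks the binding site for eIF4E and serves cap-independent initiation, stood at 8094 per kb, Eif4g1 at 5135 and Eif4g3 at 1397. The cap-binding protein gene Eif4e stood at 1802 per kb, its relatives Eif4e3 at 849 and Eif4e2 at 785. Eif4h, which like Eif4b stimulates the helicase, stood at 8159, and Eif4enif1, which carries eIF4E into the nucleus, at 1244. Its inhibitor Eif4ebp2 was higher, at 3110.3, and had 5338, 5283, 5837 and 5725 normalised counts in the libraries. The ratio of Eif4ebp2 to Eif4e per kb was 1.73, 1.76, 1.68 and 1.74, nearly the same in all libraries, and 0.988 in the knockout mean of the authors' deposited table.

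The remaining roles were filled at moderate levels. Eif1, which keeps the scanning ribosome from starting at wrong codons, led the scanning group at 6849 per kb, 2.07-fold to 2.65-fold above its close relative Eif1b. Eif1ax, an X-linked gene of eIF1A, exceeded Eif1a 2.02-fold to 2.19-fold per kb, although Eif1a overlaps the feature HAG_018819. Eif5b, which joins the ribosomal subunits, stood at 975 per kb and overlaps Rev1 in position. Eif6, which holds ribosomal subunits apart, stood at 2279 with 3165, 3383, 3550.5 and 3478 normalised counts, and Eif4a3, the helicase of the exon junction complex, at 3469 with 4949, 4992, 5207 and 4987. Eif5a exceeded its relative Eif5a2 by 93.0-fold to 117-fold per kb over the libraries. The pseudogene Eif5al3-ps, with 139, 121, 122 and 144 normalised counts, resembles Eif5a, so its reads may belong to that gene.

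The comparison of the 2 arms asks which of these transcripts differ between the HSCs labelled Dnmt3a-KO and wild type. In the authors' deposited table, 2 of the 62 genes tested were called higher at an adjusted p under 0.05 and 0 lower. Both were Argonautes: Eif2c3 rose 16.9-fold and Eif2c4 rose 6.58-fold in the authors' deposited table. None of the initiation or elongation factors proper was called there, and the lowest adjusted p of an uncalled gene was 0.264, that of Eif2c2. Over all 21778 features tested, 3.15% were called higher and 3.7% lower in the authors' deposited table, so the 3.23% called higher here is near that background.

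The calls in the authors' deposited table reach only large changes. With a mean of at least 100, the smallest rise called there over all features was 5.69-fold and the smallest fall 5.72-fold, and no smaller change was called at any feature of that level. The factors are described below by their values. By the authors' deposited table the median log2 fold change was 0.26 over the 61 measured genes and -0.04 over all features of that minimum, while all features with a mean of at least 1000, where 56 of the genes lie, had 0.15. A change of at least 2-fold in either direction was present in 8 of 56 genes with a mean of at least 1000 (14.3%), against 25.1% of all features at that level in the authors' deposited table.

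Eif2c3, the gene of Argonaute 3 (chromosome 4, 126017922 to 126106786, minus strand, mm9), had 1450.4, 1309.6, 618 and 562 normalised counts in libraries 1 to 4 and 16638 in the knockout mean of the authors' deposited table. Libraries of the 2 pairs did not overlap, and the knockout mean lay 12-fold above libraries 1 and 2 and 28.2-fold above libraries 3 and 4. By the authors' deposited table its log2 fold change was 4.08 (adjusted p 0.000612). Eif2c4, the gene of Argonaute 4 (chromosome 4, 126166787 to 126210702, minus strand, mm9), had 1651, 1689.6, 1744 and 1669 normalised counts, even over all libraries, and 11109.7 in the knockout mean of the authors' deposited table. By the authors' deposited table its log2 fold change was 2.72 (adjusted p 0.0297).

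The other Argonautes were not called. Eif2c2 encodes Argonaute 2, which can cleave its target RNA. It had 7626, 7584, 6451 and 6629 normalised counts and a knockout mean of 22976, a log2 fold change of 1.70 (adjusted p 0.264) by the authors' deposited table. Eif2c1, for Argonaute 1, had 15166, 15465, 16008 and 15859 and a knockout mean of 25355, 0.70 on the log2 scale (adjusted p 0.808) by the authors' deposited table. The knockout mean of each of the 4 Argonautes lay above both wild-type pairs. Of all features with a mean of at least 1000, where these 4 genes lie, 50.7% did so, and 40.9% with a mean of at least 10. Per kb, Eif2c1 made up 60.7% to 66.3% of the summed Argonaute level in the wild-type libraries and 34.7% in the knockout mean of the authors' deposited table, while Eif2c3 made up 2.16% to 5.37% and 21.1% in the same comparison. Levels of the 4 genes were closer together in the knockout mean than in any wild-type library.

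**Figure D2:**
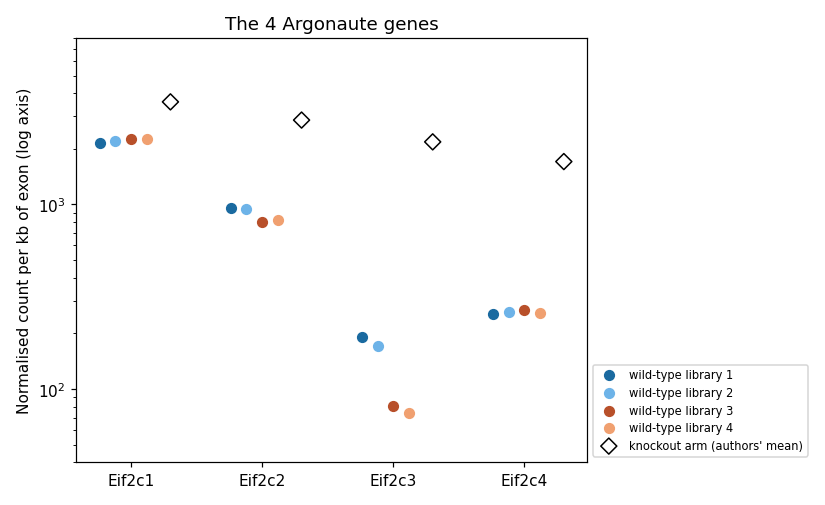
Normalised count per kb of exon (log axis) of the 4 Argonaute genes in each wild-type library (filled points) and in the knockout mean of the authors' deposited table (diamonds). Each diamond lies above the wild-type points of its own gene, from 1708 for Eif2c4 to 3599 for Eif2c1, and Eif2c3 is the lowest gene in wild type.

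Eif2c3, Eif2c1 and Eif2c4 lie side by side on chromosome 4 on the same strand, and some features beside them were higher as well. AB346227, which ends just before Eif2c3 begins in coordinate order, at 126009980 to 126015411 on the same strand, averaged 1337 normalised counts in libraries 1 and 2, 453 in the other pair and 14373 in the knockout mean, 4.01 on the log2 scale (adjusted p 0.000787) by the authors' deposited table. It lies on the side of the 3′ end of Eif2c3. HAG_027714, annotated on the opposite strand over the 3′ end of Eif2c4 (126166385 to 126170529), averaged 982 and 1039 in the pairs and 6947 in the knockout mean, 2.78 on the log2 scale (adjusted p 0.0254) by the authors' deposited table. Strand is not recorded by the kit that the labels name, so reads of Eif2c4 and HAG_027714 cannot be told apart. Other neighbours differed. Gm12929 and Gm12928, weakly expressed between Eif2c1 and Eif2c4, stood at -0.40 and 0.04 on the log2 scale by the authors' deposited table. Outside the cluster, Adprhl2 stood at -0.27 and Clspn, a replication checkpoint gene, at -1.83 on the log2 scale by the authors' deposited table, neither called, while the weakly expressed collagen gene Col8a2 stood at 2.80 (adjusted p 0.0296).

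Because the arm is labelled as lacking a DNA methyltransferase, the RefSeq windows upstream of the 3 clustered genes are shown for their CG dinucleotides, the sites of DNA methylation in mammals, which read the same on both strands. Each is the 200 bases before the annotated start (GRCm38.p6, the most upstream start where there are several), with CG in capitals.
Eif2c3 (Ago3, chr4:126429543-126429742, minus strand): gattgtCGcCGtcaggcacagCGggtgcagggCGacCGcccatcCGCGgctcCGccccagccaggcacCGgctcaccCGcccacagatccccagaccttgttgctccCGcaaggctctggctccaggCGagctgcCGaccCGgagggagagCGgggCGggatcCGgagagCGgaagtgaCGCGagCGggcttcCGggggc
Eif2c4 (Ago4, chr4:126533459-126533658, minus strand): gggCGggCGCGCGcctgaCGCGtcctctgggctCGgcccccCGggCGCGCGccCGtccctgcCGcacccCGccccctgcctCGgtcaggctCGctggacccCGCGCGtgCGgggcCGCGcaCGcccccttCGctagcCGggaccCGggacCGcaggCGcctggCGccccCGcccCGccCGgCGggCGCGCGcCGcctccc
Eif2c1 (Ago1, chr4:126468632-126468831, minus strand): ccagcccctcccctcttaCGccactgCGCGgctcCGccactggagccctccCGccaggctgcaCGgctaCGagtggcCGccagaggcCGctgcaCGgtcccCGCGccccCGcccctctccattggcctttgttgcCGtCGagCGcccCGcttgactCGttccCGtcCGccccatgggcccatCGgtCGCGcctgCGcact
They hold 22 CG in Eif2c3, 37 in Eif2c4 and 24 in Eif2c1. In the whole 300-base window, from 250 bases before the start, Eif2c3 had 37 CG, a number that 5.58% of all windows reach, and Eif2c4 had 54, which 0.347% reach. The median was 25 over the windows of the genes examined and 7 over all windows. The uncalled Eif2c1 is CG-rich as well, and no methylation was measured in these data.

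Among the factors proper, Eif2d and the start codon selection genes Eif1 and Eif5 held the highest values, none of them called. Eif1 had 6313, 6447, 10463 and 9843 normalised counts in libraries 1 to 4 and 21048 in the knockout mean, a log2 fold change of 1.35 (adjusted p 0.441) by the authors' deposited table. Eif5, the activator of GTP hydrolysis on eIF2 at the start codon, had 17166, 16877, 15524 and 15248 in wild type and 39286 in the knockout mean, 1.28 on the log2 scale (adjusted p 0.479) by the authors' deposited table. For both, the knockout mean exceeded every wild-type library, by 2.07-fold over the higher pair for Eif1 and 2.31-fold for Eif5. Eif2d, which delivers tRNA to the ribosome outside the eIF2 route and acts in restart, had 2868, 2884, 2970.5 and 3074 normalised counts in wild type and 7561 in the knockout mean, 1.36 on the log2 scale (adjusted p 0.438) by the authors' deposited table. The group of 6 scanning genes includes Eif1ad, whose part in scanning was not examined, at 0.73 on the log2 scale by the authors' deposited table. Of the 6, 4 with Eif1ad among them had a knockout mean above both wild-type pairs and none below both. This stands beside 50.7% and 36.1% of all features with a mean of at least 1000. The median of the 6 was 0.82 on the log2 scale by the authors' deposited table. The other gene at or above 2-fold was Eif4ebp1, an inhibitor of eIF4E and target of mTORC1, with 1756, 1772, 1949 and 1916 normalised counts, a knockout mean of 3857 and a log2 value of 1.06 (adjusted p 0.612) by the authors' deposited table. The ratio of Eif4ebp2 to Eif4ebp1 per kb was 1.67, 1.64, 1.64 and 1.64 in the wild-type libraries and 0.557 in the knockout mean of the authors' deposited table, so the order of the inhibitors differed between the arms.

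The lowest values belonged to Eef2k and Eif2b3. Eef2k (chromosome 7, 127986369 to 128050733, plus strand, mm9) had 14303, 14623, 14661 and 14302 normalised counts, nearly equal over the libraries, and 5924 in the knockout mean. It stood 2.44-fold lower, at -1.29 on the log2 scale (adjusted p 0.476) by the authors' deposited table. Its substrate gene Eef2 lay the other way, at 0.57 (adjusted p 0.863) with a knockout mean of 351672 by the authors' deposited table. Eif2b3 had a knockout mean of 414 against 899 and 1031 in the wild-type pairs, -1.22 on the log2 scale (adjusted p 0.518) by the authors' deposited table. The other low log2 values, with adjusted p in brackets, were those of Eif5al3-ps at -0.63 (0.843), Eef1e1 at -0.52 (0.882), Eif4ebp2 at -0.50 (0.892) and Eif2a at -0.45 (0.906) by the authors' deposited table. Their knockout means lay below both wild-type pairs, but none passed the test.

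**Figure D3:**
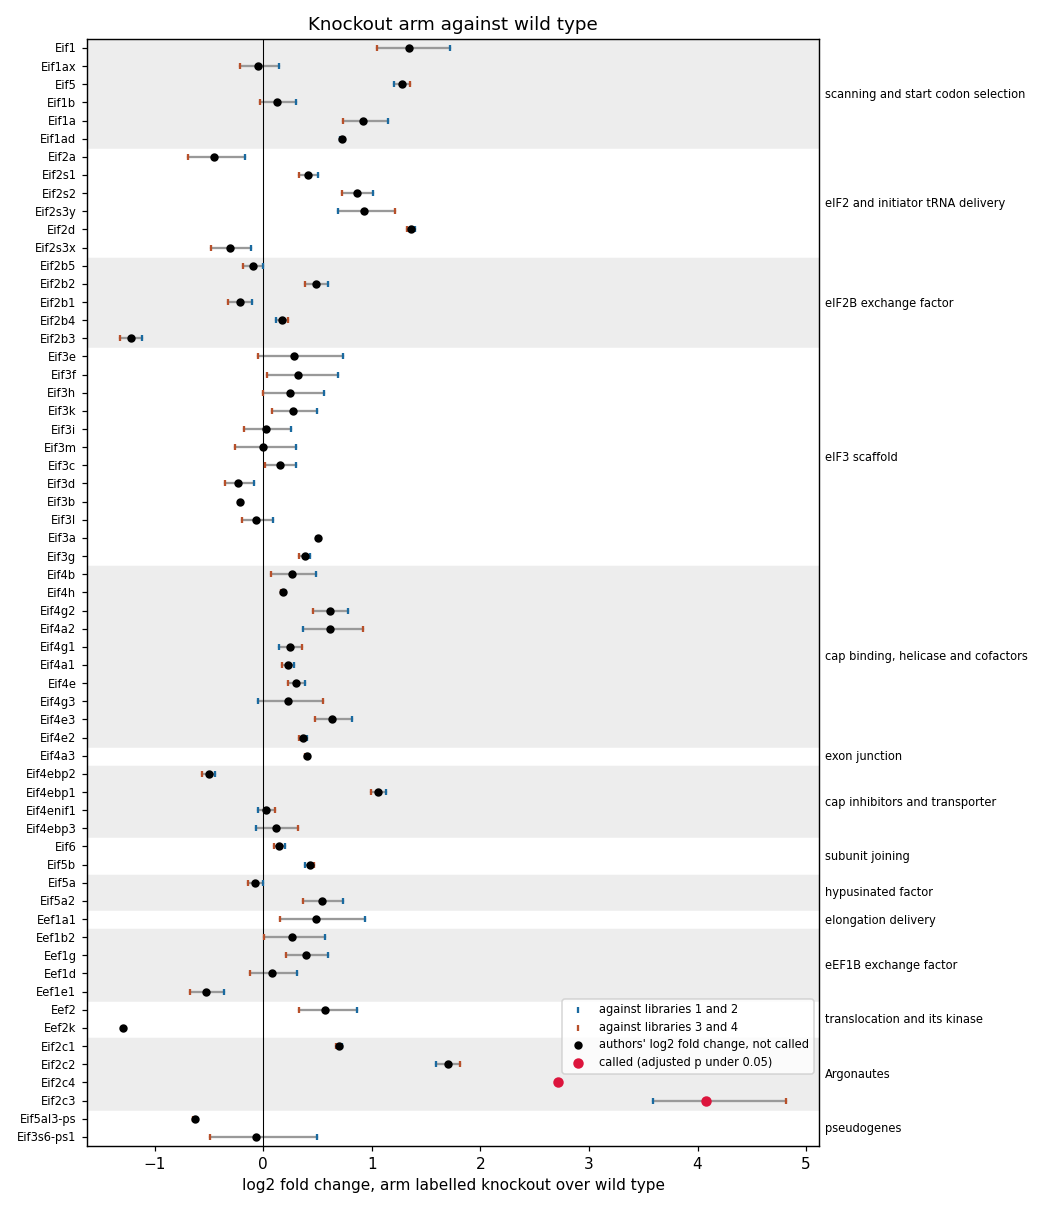
Log2 fold change of the arm labelled knockout over wild type in the authors' deposited table for the 61 measured genes by role (black, not called; red, called), with ticks for the knockout mean against each wild-type pair, joined by a grey line. The 2 called genes, Eif2c3 at 4.08 and Eif2c4 at 2.72, stand apart on the right, and 45 of the 61 genes lie above 0 (73.8%), where 48.3% of all features with a mean of at least 10 do. That background depends on level: all features with a mean of at least 1000, where 56 of the genes lie, had a median above 0, at 0.15.

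By role, the eIF3 and cap complex genes all lay less than 2-fold from wild type in the authors' deposited table. The 12 eIF3 subunits ranged from -0.23 to 0.50 (median 0.20) by the authors' deposited table, and for 5 of them the knockout mean lay between the wild-type pairs. It lay above both pairs for 5 and below both for 2, where 50.7% and 36.1% of all features with a mean of at least 1000 did so. The 10 measured cap-binding, helicase and cofactor genes ranged from 0.18 to 0.64 in the authors' deposited table, all positive. Of these, 9 had a knockout mean above both pairs and 0 below both, beside 50.7% and 36.1% of all features with a mean of at least 1000. The exception was Eif4g3, between the pairs. Elongation factors were also positive except Eef1e1 and Eef2k, with Eef1a1 at 0.49, Eef1g at 0.39 and Eef1b2 at 0.26 by the authors' deposited table. The knockout mean of Eef1a1 was 687349 in the authors' deposited table, 1.91-fold above libraries 1 and 2 but 1.11-fold above libraries 3 and 4. Of the eIF2B subunits, 2 of 5 were positive (median -0.09) by the authors' deposited table. The eIF2 subunits Eif2s1 and Eif2s2 stood at 0.41 and 0.86, Eif2s3y at 0.93 and Eif2s3x at -0.31 by the authors' deposited table, so the X and Y copies lay on opposite sides of 0.

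Over all 61 measured genes, the knockout mean of the authors' deposited table lay above both wild-type pairs in 37 and below both in 10, that is 60.7% and 16.4%, where all features with the same minimum gave 40.9% and 43.0%. Level matters to these shares: at a mean of at least 1000, 37 of 56 genes (66.1%) lay above and 7 (12.5%) below, against 50.7% and 36.1% of all features. Since the arm has 1 mean and wild type, by the labels, 1 biological replicate, these positions are a description and were not tested. The wild-type pairs differ by more than counting noise, and whether that label holds for both pairs was not tested.

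The wild-type libraries differed from each other in these genes too. Libraries 3 and 4 were higher than libraries 1 and 2 for 48 of 61 measured genes (78.7%), against 51.9% of all features with a mean of at least 10. The median log2 difference was 0.18 for the genes examined and 0.02 for all features. At a mean of at least 1000, 44 of 56 genes (78.6%) were higher, against 57.9% of all features, whose median was 0.07. The labels do not define the pairs, so they were not tested against each other. Scaling by total counts left 41 of 61 higher, since it moved all features by -0.07.

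At a mean of at least 100, the largest upward differences were those of Eef1a1 at 0.78 on the log2 scale, Eif3e at 0.78, Eif1 at 0.67, Eif3f at 0.66 and Eef1b2 at 0.56, with Eif3h and Eif3m, 2 further eIF3 subunits, at 0.56 and 0.56, the latter overlapping Ccdc73 in position. The eEF1B genes Eef1b2, Eef1d and Eef1g were all higher, at 0.56, 0.43 and 0.38, as was Eef1e1 of the multi-tRNA synthetase complex at 0.32. The inhibitory kinase Eef2k stood at 0.0018. The eIF3 subunits were spread out: Eif3e, Eif3f, Eif3h, Eif3m, Eif3i and Eif3k lay between 0.41 and 0.78, and Eif3a, Eif3b, Eif3c, Eif3d, Eif3g and Eif3l between -0.01 and 0.29. This grouping was drawn from the values themselves. The higher subunits have 765 to 1528 exon bases and the lower ones 1880 to 5154, apart from Eif3g at 1057. The largest downward differences were those of Eif2c3 at -1.22, Eif4g3 at -0.59, Eif4a2 at -0.56, Eif2s3y at -0.52 and Eif4ebp3, an inhibitor of eIF4E, at -0.38. Eif4g3 had 10473, 10663, 7157 and 6857 and Eif4ebp3 had 632, 563, 481 and 435 normalised counts in libraries 1 to 4. Eif2c3 was the 1 gene at least 2-fold apart, where 12.6% of all features at the minimum of 10 were. At a mean of at least 1000 it was 1 of 56 genes (1.79%), against 3.64% of all features. Some paralogues lay on opposite sides of 0, as Eif4a1 (0.11) and Eif4a2, or Eif4g2 (0.32) and Eif4g3. Others lay on the same side, as Eif1 (0.67) and Eif1b (0.33), Eif1a (0.41) and Eif1ax (0.36), or Eif5a (0.14) and Eif5a2 (0.37).

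**Figure D4:**
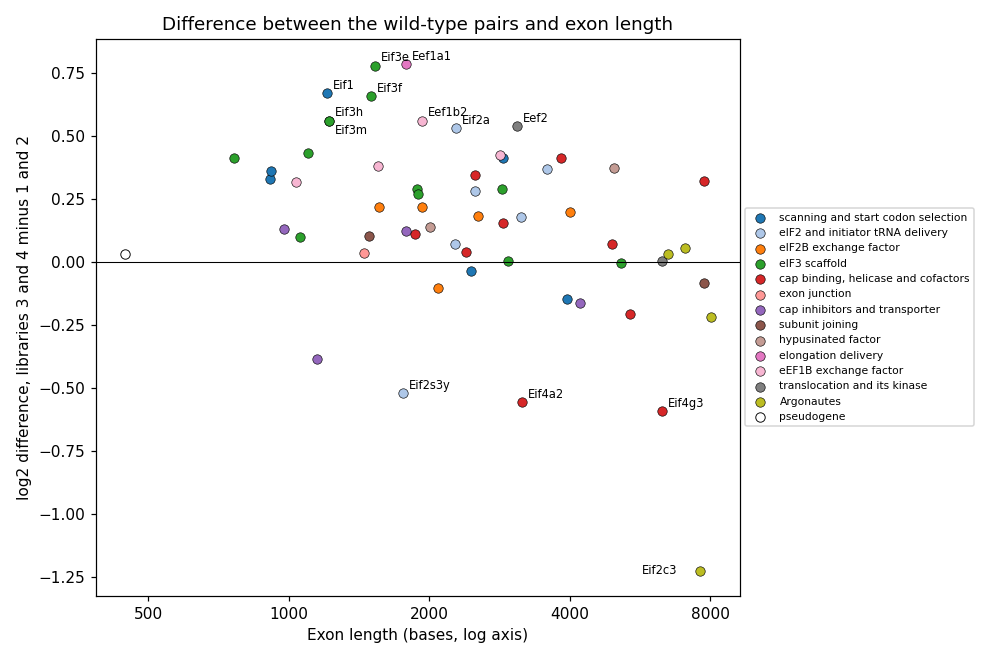
Log2 difference in normalised counts between wild-type libraries 3 and 4 and libraries 1 and 2, against exon length (bases, log axis), for the 60 genes with a mean of at least 100, coloured by role. Names are given beyond 0.5 in either direction; Eef1a1 and Eif3e lie at the top and Eif2c3, at -1.22 with a long exon span, at the bottom.

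Exon length moved with this difference. Genes with under 2000 exon bases had a median log2 difference of 0.30 with 24 of 26 higher in libraries 3 and 4, those of 2000 to 4000 bases 0.18 with 16 of 20, and longer ones -0.002 with 7 of 14. Over all features with a wild-type mean of at least 100 the medians were 0.14, 0.04 and -0.05 in the same order. Of those features, 65.6%, 54.7% and 44.6% were higher in libraries 3 and 4. The rank correlation of length and difference was -0.40 across the 60 genes, which share the 4 libraries and are not independent. Over all features of that minimum it was -0.21. Taking off the median of all features of like length left a median of 0.14 for the genes examined, a correction chosen after seeing the data. The part of length in the differences of single genes was not tested.

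Genes with and without a pyrimidine run at the start were also set side by side. At a wild-type mean of at least 100, the 13 with a run had a median difference between the pairs of 0.29. Of these, 11 (84.6%) were higher in libraries 3 and 4, while the 33 without had 0.10 and 24 (72.7%). All features with a window were taken at a higher minimum, a wild-type mean of at least 1000. They gave 0.08 with 59.6% higher where a run was present and 0.05 with 56.6% where it was not. These medians are a description, and annotated starts can miss the true first base.

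Genes that act on the factors were examined as lists. Of the 13 genes of the eIF2 kinases and the integrated stress response, none was called in the authors' deposited table, and 10 lay above 0 on the log2 scale (median 0.46). The highest there was Atf4, the transcription factor whose translation rises when eIF2 is phosphorylated, at 5041 normalised counts in libraries 1 and 2, 6831 in the other pair and 29060.0 in the knockout mean, 2.29 on the log2 scale (adjusted p 0.0813) by the authors' deposited table. Of 17 genes of mTORC1 and MNK signalling, 1 was called higher and 0 lower in the authors' deposited table. That gene was Ddit4, a stress-induced inhibitor of mTORC1, at 1356 and 2354 in the wild-type pairs and 16784 in the knockout mean, 3.18 on the log2 scale (adjusted p 0.00903) by the authors' deposited table. By the authors' deposited table the list median was -0.17.

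None of the genes of the other lists was called in the authors' deposited table. The 10 poly(A)-binding and termination genes were all positive (median 0.30) by the authors' deposited table. The 9 genes for hypusine, diphthamide and selenocysteine handling had a median of 0.08, and the 3 restart genes Denr, Mcts1 and Mcts2 ranged from -0.84 to 1.42 in the authors' deposited table. The factors of mitochondrial translation lay lower, with 1 of 9 positive (median -0.43) by the authors' deposited table. The lowest of these was the release factor gene Mtrf1, at 548 normalised counts in libraries 1 and 2, 707 in the other pair and 118 in the knockout mean, -2.40 on the log2 scale (adjusted p 0.0662) by the authors' deposited table.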

How the data were processed

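Read counts per feature, whole numbers that the authors deposited for each of 4 wild-type libraries, were the basis. The authors deposited a length-scaled signal under an FPKM heading as well. Since it is the count per kb over a constant of 50 rather than over depth, it served to give exon lengths and nothing else. The knockout mean, a signal averaged by the authors over raw counts, the log2 fold change and the p-value, read as adjusted because many features share a value, come from the authors' deposited table. The submitters' processing notes name the build mm9 and DESeq, and neither aligner, counter nor annotation is stated in the sources used here. PolyA selection and a TruSeq RNA kit are named per the labels.

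Library depth was removed with median-of-ratios size factors (0.951, 0.955, 1.05 and 1.06), and the knockout mean was put on that scale by 0.40 on the log2 scale, the median offset of the authors' fold change over 6658 features. Differences between pairs used a pseudocount of 1. A chi-square test of homogeneity on counts was run per feature. Over all features its median per degree of freedom was 0.763 for libraries 1 and 2, 0.682 for 3 and 4 and 13.0 for 1 and 3. Over the genes examined it was 1.61, 0.928 and 53.9. The means within libraries 1 and 2 and within 3 and 4 were 2.03 and 1.87 over all features. Over the genes examined they were 5.71 and 4.28. Counting noise alone gives a mean near 1, so both pairs exceeded it. Depths of 40709659 to 47408552 counts limit 0 reads to 0.0633 to 0.0737 CPM, taking 3 counts as the floor. Alternatives used TMM factors (edgeR 4.0.16), other minima and single pairs. The pair calculation was tested on simulated data. Python 3.11.15 with numpy 2.4.6, pandas 2.3.3 and scipy 1.17.1 was used.

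The members, lists and settings were chosen with earlier results of these data known. Genes given in full were those called, the 6 highest and 6 lowest fold changes and 5 largest pair differences each way at a mean of at least 100, the 6 highest per kb and the highest of each role. There are 30 columns, and 8 that give single libraries matching no sample were not used. RefSeq promoter windows were matched by symbol or synonym.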

Additional observations from a re-analysis of the deposited data

Results flagged for a closer look

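Eif4a3 had 1 wild-type library apart from the rest: library 3, at 5207 normalised counts, stood above 4949, 4992 and 4987, a gap of 0.831 of the range. Eef1a2 had its 1 read in library 3, so the gap is 1 of the range. Any gene with 1 read in all has that gap, so the value for Eef1a2 carries no information. For Eif4a3 no chance rate is given, because the libraries fall into pairs and do not vary independently. Both genes were picked out of the 64 examined, and no conclusion is drawn from either gap.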

How the results depend on the processing

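Without the Argonaute genes, 0 genes were called higher in the authors' deposited table and 0 were at least 2-fold apart between the wild-type pairs, where the median difference became 0.22. That median was 0.11 with total counts and 0.14 with the length correction. The count of genes at least 2-fold apart was 2 with a pseudocount of 0.5, the gene added being the pseudogene Eif3s6-ps1. The median log2 fold change of the knockout arm, 0.26 in the authors' deposited table, was 0.40 when set against the first pair and 0.18 against the other. Leaving out each wild-type library in turn gave 0.20 to 0.36 for that median, 0.17 to 0.20 for the difference between the pairs, 1 to 2 genes at least 2-fold apart, 2.89% to 3.18% for the share of counts, 36 to 39 genes above both pairs and 10 to 12 below both. The share of counts without Eef1a1 and Eef2 was 1.39%. The cause of these shifts was not tested, apart from the settings that leave genes out. Against a single pair, 14 of 61 genes changed sign, none of them called. No paired analysis was possible because only the wild-type group has columns that match samples here. Depth limits only the lowest genes, Eif4e1b, Eef1a2 and Eif3s6-ps2.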

Other observations

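Ribosomal protein genes, which encode the machine that the factors serve, differed between the wild-type pairs in the direction of the elongation factors. All 74 measured genes with names of the form Rpl, Rps, Rplp or Rpsa were higher in libraries 3 and 4, with a median log2 difference of 0.55 and a range of 0.17 to 0.99. Of all features, 51.9% with a mean of at least 10 and 57.9% with a mean of at least 1000 were higher there. The part of exon length in this was not tested. The median log2 fold change of the 74 genes in the knockout arm was 0.31 in the authors' deposited table. It was -0.04 there over all features with a mean of at least 10 and 0.15 with a mean of at least 1000. This set was chosen after the values of the factors were seen.

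Genes that work with the Argonautes in the microRNA pathway, a list also chosen after the values were seen, included none called in the authors' deposited table. The 11 measured genes ranged from -0.75 to 1.54 there. Tnrc6a, an Argonaute-binding scaffold of silencing, was highest, with 9138 normalised counts in the first wild-type pair, 4524 in the second and a knockout mean of 19810.3 (adjusted p 0.342 in the authors' deposited table). Dicer1, which cuts microRNA precursors, stood at 7528 and 4456 and 8999.5 in the same order, and Ddx6, a helicase of repressed mRNAs, at 22717, 26916 and 54863, the last from the authors' deposited table.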
